A study of Rattus norvegicus with 6 samples.

Results

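Ppargc1a (ENSRNOG00000004473), Cpt1b (ENSRNOG00000010438) and Pdk4 (ENSRNOG00000009565) are 3 genes that set how much fatty acid a heart muscle cell burns. They were chosen by these Ensembl IDs, and they are 3 of the 34052 features in the deposited expression table. All 3 passed the filter on low values that left 13576 features to test. Their symbols come from the choice of IDs, since the table gives IDs alone and the reference paired 0 of the 34052 IDs with a symbol.

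The cells were neonatal rat ventricular cardiomyocytes, the muscle cells of the newborn rat's ventricles kept in culture. The treated group is cells given erastin at 10 µM over 24 h, with 3 libraries. It was set against 3 libraries of control cells, which the title of the deposited table calls vehicle. The labels name no vehicle and give no strain, sex or age in days, and they give a time for the erastin libraries alone. Erastin inhibits cystine uptake into the cell and thereby starts ferroptosis, in which iron-driven peroxidation of membrane lipids kills the cell. The study used the comparison to profile expression during ferroptosis of cardiomyocytes.

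A cardiomyocyte takes most of its energy from long-chain fatty acids once the heart matures. Ppargc1a encodes a coactivator that binds PPAR and estrogen-related receptors and drives transcription of mitochondrial and fatty acid oxidation genes. Cpt1b encodes the muscle form of carnitine palmitoyltransferase, which loads fatty acids onto carnitine at the outer mitochondrial membrane and is the controlled step of their entry. Pdk4 encodes a kinase that switches off the pyruvate dehydrogenase complex, so that less acetyl-CoA comes from glucose. Cpt1b and Pdk4 are both known targets of PPAR factors and their coactivator.

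Levels are in FPKM, which divides the fragments of a feature by its length and by the library total. Library totals recovered from the steps of the FPKM values were 11149351 to 12017459 reads in erastin libraries and 11506854 to 14914827 reads in control libraries. In bulk libraries, fewer cells of a type and less RNA per cell cannot be told apart. The labelled cell type was not checked against marker genes, because IDs could not be paired with symbols. Nothing in the labels ties the 3 libraries of a group to different litters or dishes, and p-values here therefore cover the spread between libraries alone, which may be technical.

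The coactivator and the kinase gene fell with erastin while the carnitine transferase gene was high in both groups. Ppargc1a was 5.22-fold and Pdk4 3.60-fold lower in mean FPKM, and Cpt1b was 1.12-fold higher as deposited. With limma on log2(FPKM + 1) and a Benjamini-Hochberg adjusted p under 0.05 over all tested features, Ppargc1a and Pdk4 fell and Cpt1b rose, the last of these a call that was lost after median centring (limma adjusted p = 0.445). The background is high, since 66.4% of the tested features passed this test, 24.1% as lower and 42.3% as higher in erastin libraries. A fall of at least 2-fold in FPKM + 1 that passed the test was found in 4.75% of the tested features, and Ppargc1a and Pdk4 are among these. This scale understates the falls of low features, so the share is not one of 2-fold falls in FPKM.

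**Figure D1:**
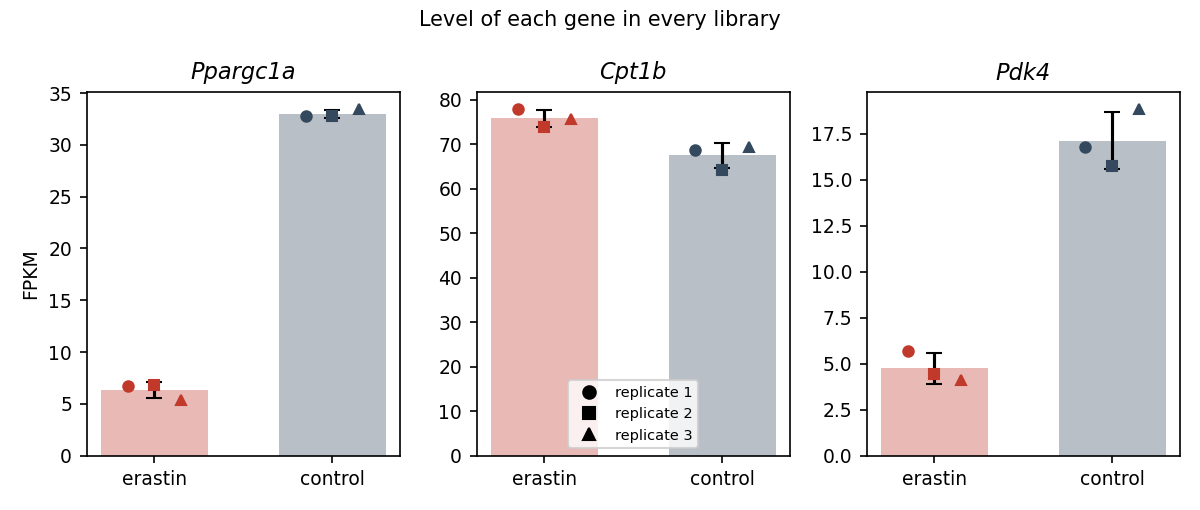
FPKM of Ppargc1a, Cpt1b and Pdk4 in erastin (red, left) and control (grey, right) libraries. Bars are means of 3 libraries, error bars are SD, and symbols mark the single libraries. Ppargc1a averaged 6.33 FPKM in erastin and 33.0 FPKM in control libraries, Cpt1b 75.8 and 67.5 FPKM, and Pdk4 4.75 and 17.1 FPKM in the same order.

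Ppargc1a was at 6.75, 6.81 and 5.42 FPKM in erastin replicates 1 to 3, against 32.8, 32.8 and 33.4 FPKM in control replicates 1 to 3. The groups did not overlap, and the lowest control library was 4.81-fold above the highest erastin library. Lack of overlap with lower values in erastin libraries was found in 26.3% of tested features. The values rested on 206, 224 and 165 reads in erastin libraries and on 1032, 1339 and 1053 reads in control libraries, over a counted length of 2737 bases. The mean was 6.33 ± 0.787 FPKM in erastin and 33.0 ± 0.377 FPKM in control libraries (SD, n = 3 each), so that erastin libraries held 19.2% of the control level.

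The log2 fold change of Ppargc1a was -2.22 (SE 0.079, 95% interval -2.40 to -2.04, limma adjusted p = 2.1e-07). It was the 53rd largest fall of 13576 tested features, and 0.39% of them fell at least as far. This place depends on the constant added before the logarithm, which damps the changes of low features. With 0.01 in place of 1 the log2 fold change was -2.39 and 1.47% of features fell at least as far. By level, the gene stood below most tested features in erastin libraries and above most in control libraries, since 30.6% to 34.8% of tested features were below it in erastin libraries and 77.9% to 78.5% in control libraries.

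The erastin libraries varied more among themselves than the control libraries did for Ppargc1a. Their coefficient of variation was 12.4%, where read counting alone gives 7.10%, with erastin replicate 3 the lowest. In control libraries it was 1.14%, where counting gives 2.96%, so the true spread of the control level may be larger than these 3 values show. Without erastin replicate 3 the log2 fold change was -2.13.

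The 250 bases before the annotated start of Ppargc1a are shown because both genes that fell have such a window in the sequence table, and these can be set side by side. The sequence is from RefSeq on GRCr8, chr14:63634058-63634307, plus strand. Capitals mark motif matches, first a cAMP response element and then, read on the other strand, the core of an antioxidant response element.
Ppargc1a: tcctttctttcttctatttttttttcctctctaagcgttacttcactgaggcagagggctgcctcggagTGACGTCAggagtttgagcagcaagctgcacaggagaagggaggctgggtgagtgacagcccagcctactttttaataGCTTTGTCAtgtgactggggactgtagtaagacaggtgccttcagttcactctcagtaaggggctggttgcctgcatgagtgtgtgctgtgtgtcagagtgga

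The cAMP response element, searched as TGACGTCA, lay 181 to 174 bases before the start and is held by 1.59% of all 33469 promoter windows of this length. This element is known as the site through which cAMP signalling and CREB act on the gene. The core of the antioxidant response element, TGACNNNGC, is a motif bound by NRF2, the main activator of antioxidant genes. It matched as TGACAAAGC on the opposite strand, 103 to 95 bases before the start, and 10.1% of all windows hold a match. A short motif with free positions is common, and a match says only that these letters are present. Ppargc1a has further annotated starts, and the window shown lies inside the span of the gene as annotated, so it covers 1 of its promoters.

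Pdk4 was at 5.70, 4.44 and 4.11 FPKM in erastin replicates 1 to 3, against 16.8, 15.8 and 18.8 FPKM in control replicates 1 to 3. The groups did not overlap, and the lowest control library was 2.77-fold above the highest erastin library. Such a lack of overlap, with lower values in erastin libraries, was found in 26.3% of tested features. The mean was 4.75 ± 0.838 FPKM in erastin and 17.1 ± 1.56 FPKM in control libraries (SD, n = 3 each), so that erastin libraries held 27.7% of the control level. Pdk4 had the fewest reads of the 3 genes, 100, 84 and 72 in erastin libraries and 304, 370 and 341 in control libraries, over a counted length of 1573 bases.

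The log2 fold change of Pdk4 was -1.66 (SE 0.111, 95% interval -1.92 to -1.40, limma adjusted p = 5.8e-06). It was the 175th largest fall, and 1.29% of tested features fell at least as far. With 0.01 added in place of 1 it was -1.86, and 2.81% of features fell at least as far. The coefficient of variation was 17.6% in erastin libraries, where counting gives 10.8%, and 9.12% in control libraries, where counting gives 5.44%. The lowest erastin library was replicate 3, as for Ppargc1a, and the highest control library was replicate 3 for both genes. The control values of Ppargc1a varied by 1.14%, less than the 2.96% that counting alone gives, so their order may be counting noise.

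The 250 bases before the annotated start of Pdk4 are shown for comparison with those of Ppargc1a. The sequence is from RefSeq on GRCr8, chr4:34568330-34568579, minus strand, written in the direction of transcription. Capitals mark first a CCAAT box, which reads ATTGG on this strand, and then a GC box.
Pdk4: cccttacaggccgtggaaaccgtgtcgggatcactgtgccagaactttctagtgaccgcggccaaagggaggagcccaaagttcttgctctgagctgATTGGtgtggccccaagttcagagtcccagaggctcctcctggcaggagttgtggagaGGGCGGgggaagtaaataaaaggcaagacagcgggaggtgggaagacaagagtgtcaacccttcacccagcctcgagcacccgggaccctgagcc

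The GC box, searched as GGGCGG, lay 95 to 90 bases before the start, and the CCAAT box, searched as CCAAT, 153 to 149 bases before it. Both are general promoter motifs, held by 30.5% and 34.0% of all 33469 windows. The Pdk4 window was richer in G and C, at 59.2%, than the Ppargc1a window at 50.4%, where the median of all windows was 51.2%. The 2 windows shared none of the motifs found. Other motifs of factors known to act on these genes were searched on both strands and had no match in either window. They were the nuclear receptor half-site AGGTCA (14.1% of all windows), the estrogen-related receptor site TNAAGGTCA (1.04%) and the FOXO site GTAAACA (3.21%). They also included the amino acid response element TTGCATCA (0.693%), the E-box CACGTG (5.59%), the TATA box TATAAA (12.9%) and the MEF2 site (2.96%). No match says only that these letters are not in this window. Forms of the sites with other letters, which the same factors may bind, were not searched.

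**Figure D2:**
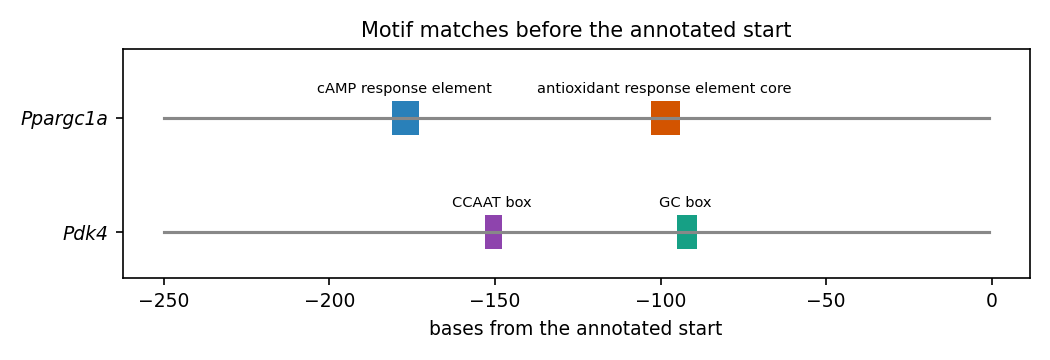
Motif matches in the 250 bases before the annotated starts of Ppargc1a and Pdk4, drawn to scale as bases from the start on the horizontal axis. Ppargc1a holds a cAMP response element at 181 to 174 and an antioxidant response element core at 103 to 95 bases before the start, and Pdk4 a CCAAT box at 153 to 149 and a GC box at 95 to 90.

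Cpt1b was at 77.8, 74.0 and 75.6 FPKM in erastin replicates 1 to 3, against 68.8, 64.3 and 69.3 FPKM in control replicates 1 to 3. The groups did not overlap as deposited, but the lowest erastin library was only 1.07-fold above the highest control library. Lack of overlap with higher values in erastin libraries was found in 45.7% of tested features. The mean was 75.8 ± 1.94 FPKM in erastin and 67.5 ± 2.77 FPKM in control libraries (SD, n = 3 each), 12.3% higher. Cpt1b had the most reads of the 3 genes, 3183 to 3363 in erastin and 2995 to 3628 in control libraries, over a counted length of 3784 bases.

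The log2 fold change of Cpt1b was 0.17 (SE 0.041, 95% interval 0.07 to 0.26, limma adjusted p = 0.00759), and this call rested on the scaling of the libraries. The median log2 fold change of all tested features was 0.135, and 53.1% of features had a value as low as that of Cpt1b or lower. With libraries centred on their median log ratios, Cpt1b was at 0.04 (95% interval -0.06 to 0.13, limma adjusted p = 0.445) and did not pass the test, while 31.3% of features passed as higher and 31.6% as lower. Quantile normalization gave 0.04 (limma adjusted p = 0.419). Relative to the typical feature, the centred interval bounds the change of Cpt1b to between -0.06 and 0.13 on the log2 scale. By level, 89.9% to 90.4% of tested features were below Cpt1b in erastin libraries and 89.3% to 90.2% in control libraries. Ppargc1a and Pdk4 were lower still after centring, at -2.35 (limma adjusted p = 1.64e-07) and -1.79 (limma adjusted p = 4.35e-06).

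**Figure D3:**
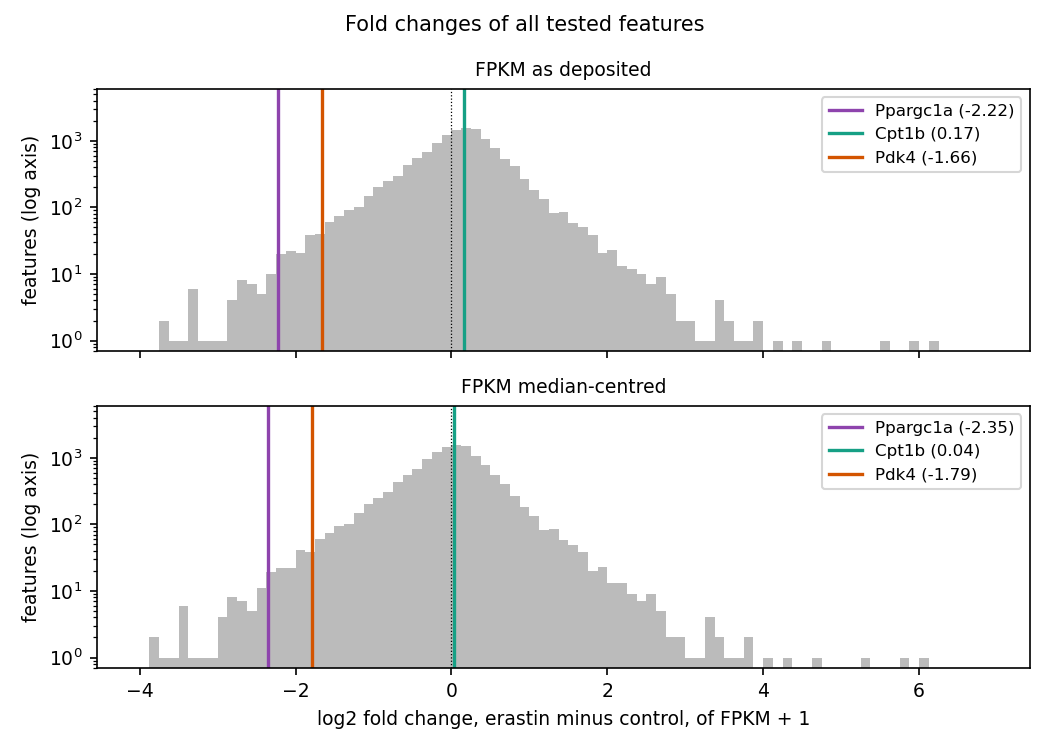
Number of tested features (logarithmic axis) by log2 fold change of FPKM + 1, erastin minus control, as deposited (top) and with libraries centred on their median log ratios (bottom). Coloured lines mark Ppargc1a at -2.22 and -2.35, Pdk4 at -1.66 and -1.79 and Cpt1b at 0.17 and 0.04, so that Ppargc1a and Pdk4 lie in the lower tail of both distributions and Cpt1b in their middle.

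Ratios of 2 genes within a library do not depend on how that library was scaled. The log2 ratio of Ppargc1a to Cpt1b was -3.53, -3.44 and -3.80 in erastin replicates 1 to 3, against -1.07, -0.97 and -1.05 in control replicates 1 to 3. The log2 ratio of Pdk4 to Cpt1b was -3.77, -4.06 and -4.20 in erastin libraries, against -2.03, -2.03 and -1.88 in control libraries. In both ratios every erastin library was below every control library, and the means differed by -2.56 and -2.03 on the log2 scale. This separation follows from the single genes, since Ppargc1a and Pdk4 were lower and Cpt1b higher in erastin libraries, each without overlap. The share of other pairs of features with such a separation was not computed. The log2 ratio of Pdk4 to Ppargc1a was -0.24, -0.62 and -0.40 in erastin libraries, against -0.96, -1.06 and -0.83 in control libraries, a difference of 0.53. Every erastin library was above every control library in this ratio, since Pdk4 lost a smaller share of its level than Ppargc1a. Each of the 3 ratios gave an exact two-sided permutation p of 0.1 (0.1 after Benjamini-Hochberg adjustment over the 3), the smallest that 3 against 3 libraries can give.

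**Figure D4:**
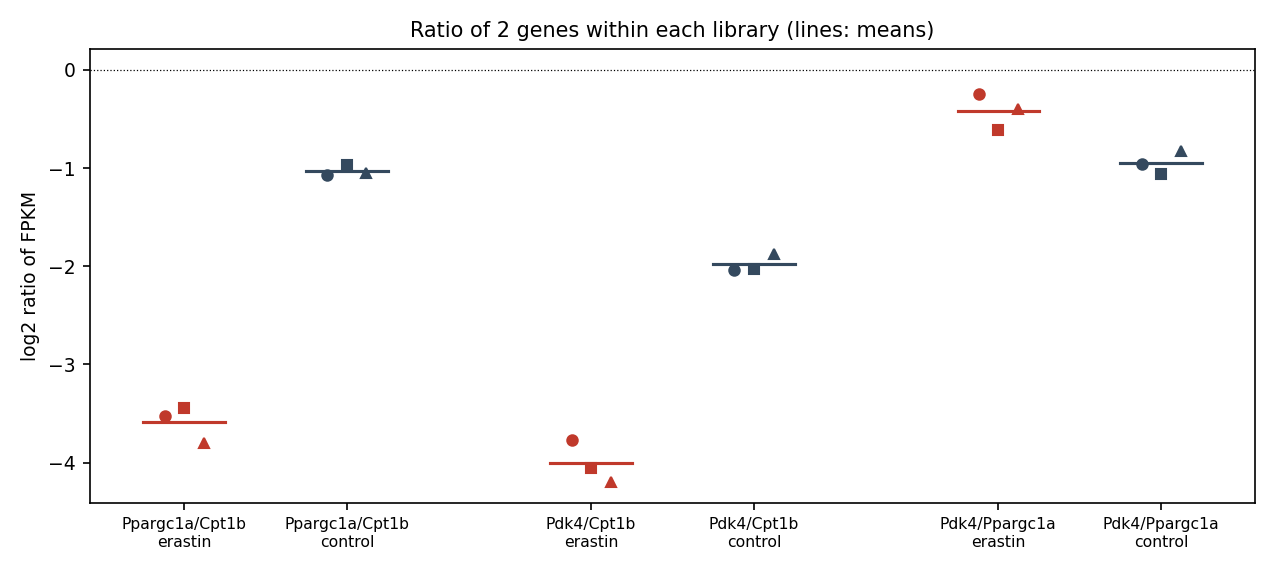
Log2 ratio of the FPKM of 2 genes within each library, with erastin libraries in red left of control libraries in grey, and lines at the means of 3 libraries. The ratios to Cpt1b averaged -3.59 and -4.01 in erastin and -1.03 and -1.98 in control libraries for Ppargc1a and Pdk4, and the ratio of Pdk4 to Ppargc1a averaged -0.42 in erastin and -0.95 in control libraries.

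The order of the 3 genes by level per length was the same in all 6 libraries, with Cpt1b highest, Ppargc1a next and Pdk4 lowest. The distances between them differed. Cpt1b was 10.9 to 14.0 times the level of Ppargc1a in erastin libraries and 1.96 to 2.10 times in control libraries. It was 13.6 to 18.4 times the level of Pdk4 in erastin libraries and 3.68 to 4.10 times in control libraries. Ppargc1a was 1.18 to 1.53 times the level of Pdk4 in erastin libraries, where the ranges of both genes overlapped, and 1.77 to 2.08 times in control libraries, where they did not.

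Features with the most similar pattern were sought by the root mean square difference of log2(FPKM + 1) over the 6 libraries, after each feature was centred on its own mean. Among 12926 Ensembl-numbered features, the nearest to Ppargc1a was ENSRNOG00000009106 at a distance of 0.047. It was at 0.877, 0.895 and 0.703 FPKM in erastin libraries, against 7.47, 7.54 and 7.90 FPKM in control libraries. This is 9.26-fold lower in mean FPKM, against 5.22-fold for Ppargc1a, so the match rests on the constant of 1 added before the logarithm. The nearest to Pdk4 was ENSRNOG00000046607 at a distance of 0.054, with 13.2, 11.8 and 10.3 FPKM in erastin libraries, against 39.9, 34.7 and 42.3 FPKM in control libraries. The nearest to Cpt1b was ENSRNOG00000018556 at a distance of 0.009, with 91.1, 86.8 and 89.1 FPKM in erastin libraries, against 81.5, 76.2 and 80.7 FPKM in control libraries. The next 2 lay at 0.056 and 0.056 for Ppargc1a, at 0.078 and 0.084 for Pdk4 and at 0.013 and 0.018 for Cpt1b. Ppargc1a and Pdk4 were 0.30 apart, and 128 features were nearer to Ppargc1a than Pdk4 was. With 0.01 added in place of 1, a choice made after seeing the data, they were 0.29 apart and 139 features were nearer. ENSRNOG00000009106 was then at a distance of 0.41 from Ppargc1a, and another feature was nearest at 0.054. ENSRNOG00000046607 was at 0.090 from Pdk4, where the nearest feature was at 0.082, and ENSRNOG00000018556 was still the nearest to Cpt1b, at 0.009. These IDs were not paired with symbols.

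**Figure D5:**
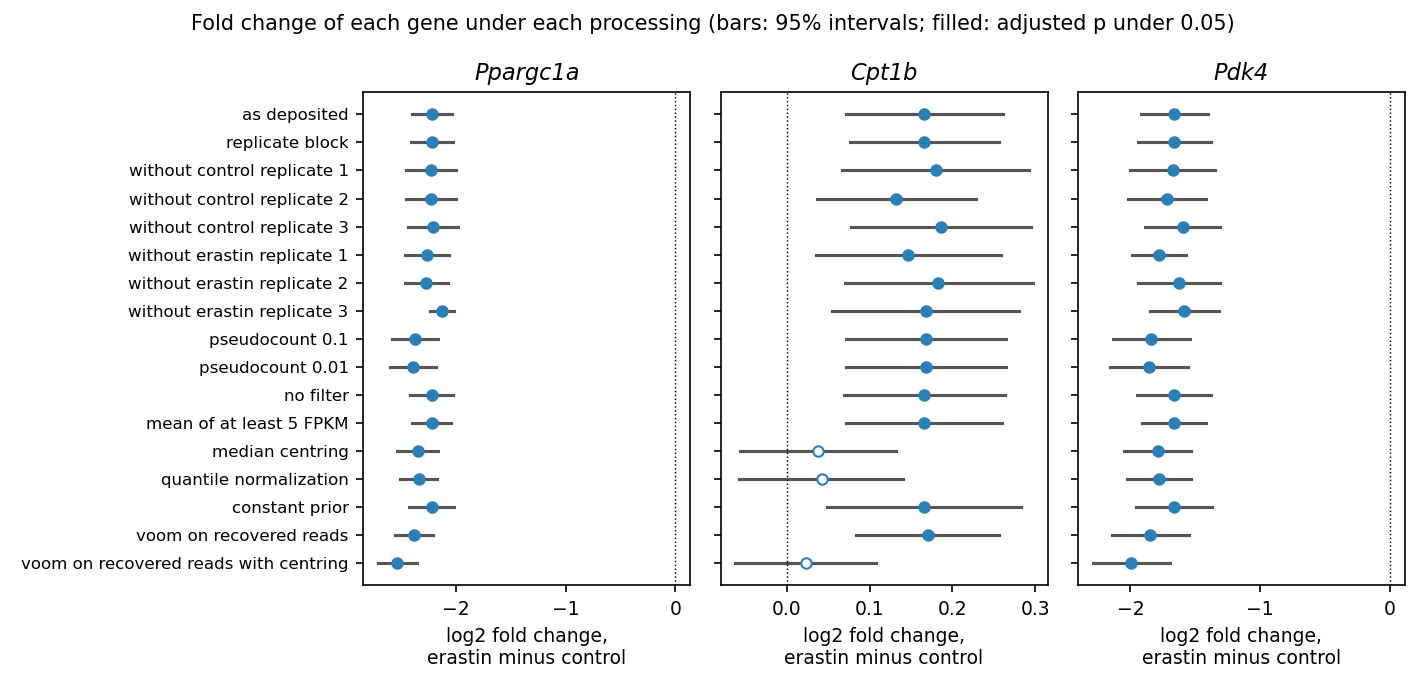
Log2 fold change (erastin minus control) of each gene under each processing, with 95% intervals from limma. Filled points passed an adjusted p under 0.05. Ppargc1a lay between -2.53 and -2.13 and Pdk4 between -2.00 and -1.58, and the 3 open points of Cpt1b, at 0.02 to 0.04, are the settings that centre or quantile-normalize the libraries.

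In the reference annotation, no gene overlaps Cpt1b or Pdk4. The nearest gene to Cpt1b is Chkb, which encodes a choline kinase, and reads of a transcript that runs through both could have been counted for either. A ribosomal protein pseudogene, Rpl36-ps6, is annotated within the span of Ppargc1a. Whether the counting used strand is not given in the sources used here, and the part of such reads in these values was not tested.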

How the data were processed

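Poly(A) RNA of 6 libraries was sequenced in paired ends with dUTP marking of the second strand, per the labels' protocols. The submitters' processing notes list HISAT2 2.0.5 and DESeq2 without saying what each did. Build, annotation and counting tool: not given in the sources used here. FPKM were deposited by the authors for 34052 features. Scaling to library totals means that a change in abundant features shifts all others.

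The 3 genes, the gene lists and the tests were chosen with earlier results of these data known. The lists of other pathway genes and cell type markers were not analysed here, because 0 of 34052 IDs matched a symbol. Limma 3.58.1 in R 4.3.3 was fitted on log2(FPKM + 1) of the 13576 features that reached 1 FPKM in 3 or more libraries, with a trended and robust prior, 6 libraries and Benjamini-Hochberg adjustment at 0.05. Fold changes on this scale understate those of low features. Exact two-sided permutation tests compared ratios within libraries. Genes were named by being one of the 3, or by nearest pattern.

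Reads were recovered from the FPKM steps: 99.985% of values above 0 in tested features were whole reads within a relative tolerance of 1e-06, or 0.01 reads. Within groups the mean chi-square per feature between libraries was 2.67 to 5.22, so no library was taken as a copy of another. The medians were lower, at 0.597 to 0.765, so the means do not describe the typical feature. A chi-square from counting noise alone also has its median below its mean. Whether the typical feature differed between libraries beyond counting noise was not tested. The recovery and the fit were tested on simulated data. The data simulated for the fit had few changed features and no common shift of the libraries. They therefore do not test the scaling on which the Cpt1b call rests. Promoter motifs were read from RefSeq windows on GRCr8, which held 2 of the 3 genes. Alternatives were the replicate block, leaving out single libraries, pseudocounts 0.1 and 0.01, 2 other filters, 2 other scalings, a constant prior, limma's voom on recovered reads with and without centring, and an adjusted p of 0.01. A pseudocount of 1 for ratios and of 0.01 for pattern distances was tried after seeing the data. Recovery, ratios and figures were made in Python 3.11.15 (scipy 1.17.1, pandas 2.3.3, numpy 2.4.6, matplotlib 3.10.9).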

Additional observations from a re-analysis of the deposited data

How the results depend on the processing

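Ppargc1a and Pdk4 kept their fall and an adjusted p under the threshold in all 17 alternatives, with log2 fold changes of -2.53 to -2.13 (adjusted p 2.02e-09 to 9.66e-06) and -2.00 to -1.58 (adjusted p 4.38e-07 to 0.000107). Cpt1b kept its direction in all 17 (limma adjusted p 0.00275 to 0.618). It passed in 14, all of them with the deposited scaling of the libraries. It did not pass with median centring (0.038, limma adjusted p = 0.445), quantile normalization (0.042, limma adjusted p = 0.419) or voom with centring (0.023, limma adjusted p = 0.618), which remove the common shift of the libraries by construction. With 1 library left out, the ranges were -2.27 to -2.13 for Ppargc1a, 0.13 to 0.19 for Cpt1b and -1.78 to -1.58 for Pdk4. The number of changed features was 7230 to 9308 against 9011, with 8064 to 8335 when 1 library was left out. The split was 4253 higher and 4287 lower with median centring and 4414 and 4115 with quantile normalization, against 5744 and 3267 as deposited. The 3 ratios kept their direction in all 10 alternatives each, at -2.63 to -2.39 for Ppargc1a to Cpt1b, -2.15 to -1.83 for Pdk4 to Cpt1b and 0.44 to 0.63 for Pdk4 to Ppargc1a, where no p under 0.1 is possible.

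With the replicate block, the log2 fold changes were -2.22, 0.17 and -1.66 for Ppargc1a, Cpt1b and Pdk4, 8768 features changed, and no call of the 3 genes was altered. The labels do not pair same-numbered libraries, whose deviations correlated at -0.03, 0.07 and 0.03, and not every library correlated best with its own number. The counts of the pathway lists could not be computed without symbols. Depth limits Pdk4 most, at 72 to 100 reads per erastin library.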
